A study of Mus musculus with 20 samples.

Results

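A set of 10 genes of the germline and of meiosis was followed through the chemical reprogramming of mouse fibroblasts: Dazl, Ddx4, Piwil2, Fkbp6, Rhox9, Sohlh2, Mael, Asz1, Sycp1 and Sycp3. They were chosen by name and found by their Ensembl identifiers, which gave 10 of the 47643 genes of the deposited count table. In this method mouse embryonic fibroblasts (MEFs) are turned by small molecules into pluripotent CiPS cells, and the study asked how crotonic acid acts on the process. RNA sequencing libraries came from B6DBA mouse cells: MEFs (1 library), untreated cultures at days 16, 20, 24 and 28 (2 libraries each), cultures with crotonic acid at days 20, 24 and 28 (2 libraries each), CiPS lines made with crotonic acid (2) or by the three-step method (1), and an ES line of the same strain (1). Crotonic acid was given at 6 to 8 mM in the induction medium, from day 16 without a break until day 28. A CiPS line of the BrdU method was not analysed here. Whether the libraries of a group stem from separate cultures is not stated in the labels, so every p-value reflects only how far these libraries spread, which may be technical.

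Germ cells guard the genome with PIWI proteins, which carry small piRNAs that recognise transposon transcripts, and with RNA helicases, tudor proteins and scaffolds gathered in granules near the mitochondria. In meiosis, homologous chromosomes are zipped together by the synaptonemal complex. In somatic cells the promoters of many such genes are silenced by DNA methylation and by a repressor complex that includes E2F6, MGA, MAX and PCGF6, and mouse pluripotent cells transcribe some of them without becoming germ cells.

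Total counts were between 17.5e6 and 26.6e6 reads per library. Levels are counts scaled to library size (CPM) with TMM factors, and a gene is said to rise or fall where edgeR's quasi-likelihood test gave a Benjamini-Hochberg adjusted p under 0.05 over all genes tested. The labelled cell types held their markers: 6 fibroblast genes summed to 64300 CPM in MEFs, and 6 pluripotency genes to between 3360 and 4060 CPM in the ES and CiPS lines, against 2.92 CPM in MEFs. The ES and CiPS lines also held fibroblast transcripts, at 10500 to 15700 CPM in sum, against 428 to 1270 CPM in the untreated day 28 libraries, and macrophage transcripts (5 genes), at 39.1 to 132 CPM against 18.9 to 19.4 CPM. MEFs themselves held little of the germline genes, 2.68 CPM summed over all 10, of which Ddx4 made up 1.98 CPM. The CiPS lines held 95.8 to 182 CPM of them and the ES line 132 CPM. The MEF library also held 107 CPM of the macrophage genes and 65.0 CPM of 7 liver genes. Liver transcripts (7 genes) reached 37.3 CPM in replicate 2 of day 20 with crotonic acid and 98.6 CPM in replicate 1 of day 28 with crotonic acid, against at most 5.06 CPM in any other reprogramming library, and results that use both libraries were also computed without them.

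Promoter sequences of 8 of the 10 genes were found in RefSeq (GRCm38.p6), each covering 250 bases before to 50 bases after a transcription start. Piwil2 and Rhox9 are named only. Both strands were searched for the E-box CACGTG, which reads the same on either strand, and for TCCCGC or its reverse complement GCGGGA, a motif of the E2F6 type; no match of one overlapped a match of the other in these windows. Of 32851 promoter windows of the genome, 7.2% held the E-box, 20.0% the E2F6-type motif and 2.0% both. Both were found in the promoters of Ddx4, Mael, Sycp1 and Sycp3. Fkbp6 held 2 E-boxes, in each of its 2 overlapping windows, and no E2F6-type motif, and Dazl, Sohlh2 and Asz1 held neither. Related genes are described with the other lists after the results on the 10. Both motifs were found in 35.7% of 14 windows of synaptonemal complex genes and 14.3% of 14 windows of recombination genes. For further germline-linked genes it was 14.3% of 21 windows, and for piRNA pathway genes 0% of 19 windows. The E-box was found in 35.7%, 14.3%, 42.9% and 31.6% of the windows of these lists in the same order. The 4 windows with both motifs, 1 window of Fkbp6 and that of Dazl are shown as examples of promoters with both, 1 or neither kind of motif. Sequences run 5′ to 3′ on the gene's strand, with the motif matches in capitals.
Ddx4, chr13:112652261-112652560, minus strand: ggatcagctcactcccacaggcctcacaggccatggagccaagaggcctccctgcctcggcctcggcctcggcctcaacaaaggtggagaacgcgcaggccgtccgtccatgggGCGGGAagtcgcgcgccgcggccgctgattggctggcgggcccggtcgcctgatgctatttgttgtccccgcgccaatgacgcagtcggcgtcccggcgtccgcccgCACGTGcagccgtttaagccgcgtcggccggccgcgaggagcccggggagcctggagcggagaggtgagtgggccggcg
Mael, chr1:166238695-166238994, minus strand: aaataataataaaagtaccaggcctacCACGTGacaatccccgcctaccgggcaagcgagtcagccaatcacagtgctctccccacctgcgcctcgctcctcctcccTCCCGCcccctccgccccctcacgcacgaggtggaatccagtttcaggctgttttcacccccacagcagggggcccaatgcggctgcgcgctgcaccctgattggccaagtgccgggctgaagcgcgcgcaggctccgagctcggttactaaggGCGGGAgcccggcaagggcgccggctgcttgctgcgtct
Sycp1, chr3:102936051-102936350, minus strand: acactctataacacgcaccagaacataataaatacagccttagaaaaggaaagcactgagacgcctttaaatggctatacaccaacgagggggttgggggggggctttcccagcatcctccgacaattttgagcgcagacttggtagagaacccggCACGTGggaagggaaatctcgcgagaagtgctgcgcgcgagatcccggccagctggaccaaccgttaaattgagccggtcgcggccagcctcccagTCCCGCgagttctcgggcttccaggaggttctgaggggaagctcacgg
Sycp3, chr10:88459337-88459636, plus strand: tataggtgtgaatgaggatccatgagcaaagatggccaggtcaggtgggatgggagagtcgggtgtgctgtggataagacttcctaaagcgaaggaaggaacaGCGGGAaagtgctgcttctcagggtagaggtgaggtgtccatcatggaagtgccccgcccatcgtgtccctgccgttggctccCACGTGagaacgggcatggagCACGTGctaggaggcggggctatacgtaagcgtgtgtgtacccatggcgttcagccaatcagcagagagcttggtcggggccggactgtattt
Fkbp6, chr5:135349995-135350294, minus strand: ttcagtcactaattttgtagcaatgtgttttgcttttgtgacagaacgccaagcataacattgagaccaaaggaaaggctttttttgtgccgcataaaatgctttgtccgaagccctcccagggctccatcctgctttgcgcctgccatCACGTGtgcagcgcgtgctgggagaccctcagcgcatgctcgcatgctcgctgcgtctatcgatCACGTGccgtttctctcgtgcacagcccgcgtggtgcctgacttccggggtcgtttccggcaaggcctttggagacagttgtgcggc
Dazl, chr17:50293571-50293870, minus strand: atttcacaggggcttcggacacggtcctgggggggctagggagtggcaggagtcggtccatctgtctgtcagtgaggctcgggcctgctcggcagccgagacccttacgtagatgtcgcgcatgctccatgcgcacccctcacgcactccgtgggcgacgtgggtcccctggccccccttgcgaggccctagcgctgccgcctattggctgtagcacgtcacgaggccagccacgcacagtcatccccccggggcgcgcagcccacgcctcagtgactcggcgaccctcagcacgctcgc

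In these windows the E-box of Ddx4 ended 24 bases before the start, those of Sycp3 ended 59 and 38 bases before it, and that of Mael lay farther out, ending 218 bases before it. The E2F6-type motif began 3 bases into the transcript in Sycp1 and 12 bases into it in Mael, where a further match ended 138 bases before the start. The promoters were rich in CpG: the median of the 9 windows was 21 CpG dinucleotides, against 7 in all windows. Each motif itself contains a CpG, and the shares over all windows were not matched for CpG. A match is a description of the letters and not evidence of binding.

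**Figure D1:**
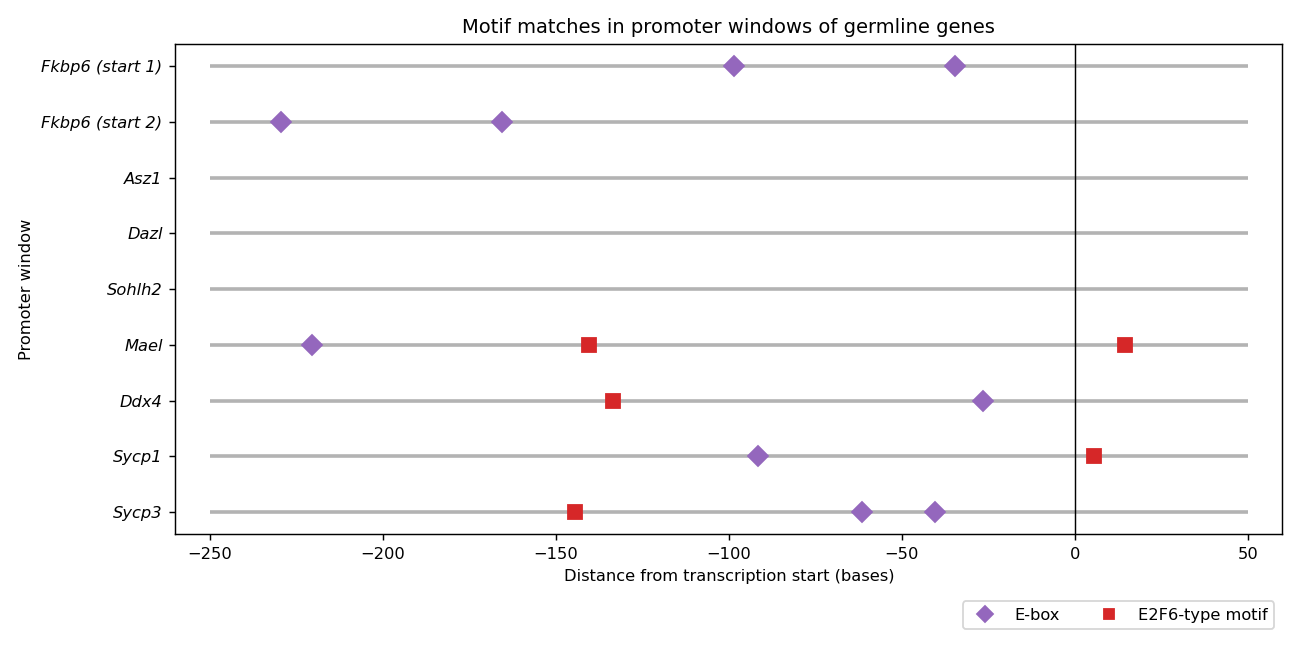
Motif matches in the 9 promoter windows of 8 germline genes, by distance in bases from the transcription start (vertical line); diamonds are E-boxes, squares E2F6-type motifs, and Fkbp6 has 2 overlapping windows. Mael, Ddx4, Sycp1 and Sycp3 carry both kinds, while Asz1, Dazl and Sohlh2 carry neither.

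From day 16 to day 28 without crotonic acid, 9 of the 10 genes rose, where 10.1% of the 17387 genes tested did. By day 20, 5 genes had risen (Rhox9, Fkbp6, Piwil2, Sohlh2 and Dazl; 1.66% of all genes did), and by day 24 Mael and Asz1 had joined them (7 genes; 5% of all genes). All 10 passed the filter on low counts, but 9 of them lay under its minimum of about 0.472 CPM at day 16 and passed only through later groups, so these counts describe the genes and support nothing further. The days share the day 16 libraries. In bulk RNA, fewer cells of a type and less RNA per cell cannot be told apart, so a level may reflect either.

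The transcription factor genes Rhox9 and Sohlh2 had both risen by day 20. Rhox9 (ENSMUSG00000068048), a homeobox gene of the X-linked reproductive cluster, was at 0.364 and 0.0912 CPM in the day 16 libraries (replicates 1 and 2), 40.8 and 33.3 CPM at day 20, 31.7 and 57.2 CPM at day 24 and 34.3 and 46.4 CPM at day 28. It had thus reached its later level by day 20, and the libraries of days 20, 24 and 28 overlapped. The rise to day 20 was 7.32 ± 0.53 on the log2 scale (SE; adjusted p = 8.83e-05), and the ratio of day 28 to day 24 was 0.908. Rhox9 has a close paralog in its cluster, Rhox6, and how reads shared by copies were counted is not stated in the labels. Sohlh2 (ENSMUSG00000027794), a basic helix-loop-helix factor of early spermatogonia and oocytes, had no counts in either day 16 library and was at 5.14 and 1.65 CPM at day 20, 8.62 and 4.63 CPM at day 24 and 13 and 9.18 CPM at day 28. Day 28 was at least 163-fold above day 16 (floor of 3 counts over the day 16 libraries), and the rise was called from day 20 on (adjusted p = 0.0276 at that day). The libraries of days 20 and 24 overlapped, and both lay below those of day 28.

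Dazl (ENSMUSG00000010592), an RNA-binding protein that controls translation in germ cells, had the largest ratio of day 28 to day 24 among the 10. Its levels were 0.136 and 0.137 CPM at day 16, 1.96 and 0.564 CPM at day 20, 3.40 and 3.73 CPM at day 24 and 22.9 and 16.5 CPM at day 28, and the libraries of successive days did not overlap. Day 28 was 144-fold above day 16 (log2 fold change 7.16 ± 0.66, adjusted p = 0.000123) and 5.53-fold above day 24. The step from day 24 to day 28 was called with the replicate number as a block (2.45 ± 0.31, adjusted p = 0.0143) and not without it.

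All 5 genes of the piRNA pathway among the 10 were higher at day 28 than at day 16. Fkbp6 (ENSMUSG00000040013), a co-chaperone needed for loading piRNAs, had a single count at day 16 (0.0455 and 0 CPM), and was at 10 and 6.68 CPM at day 20, 15.9 and 20.9 CPM at day 24 and 48.1 and 44.3 CPM at day 28. Each day lay above the one before without overlap, and the ratio of day 28 to day 16 was 2020 (exact 95% counting interval 363 to 80000; adjusted p = 2.18e-06). With the replicate block its steps from day 20 to day 24 (1.17 ± 0.22, adjusted p = 0.0406) and from day 24 to day 28 (1.34 ± 0.21, adjusted p = 0.0219) were called as well. Piwil2 (ENSMUSG00000033644), the PIWI protein Mili, was at 0.273 and 0.228 CPM at day 16, 4.33 and 2.12 CPM at day 20, 7.56 and 6.42 CPM at day 24 and 13.9 and 12.2 CPM at day 28, a rise of 52.1-fold (5.71 ± 0.50, adjusted p = 9.68e-05). Here too no library of one day overlapped the next.

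Asz1 (ENSMUSG00000010796), a scaffold of the mitochondrial surface in germ cells, was at 0.091 and 0.0912 CPM at day 16, 1.88 and 0.893 CPM at day 20, 3.48 and 2.36 CPM at day 24 and 5.10 and 4.34 CPM at day 28 (51.8-fold; 5.65 ± 0.85, adjusted p = 0.00171). Its difference at day 20 missed the threshold without the block (3.86 ± 0.88, adjusted p = 0.0534) and passed with it (adjusted p = 0.00532). Mael (ENSMUSG00000040629), an HMG-box protein needed to silence transposons, had no counts at day 16 and reached 2.50 and 2.40 CPM at day 28, after 0.449 and 0.094 CPM at day 20 and 0.765 and 0.472 CPM at day 24. It was at least 35.8-fold above day 16 at day 28 (adjusted p = 0.003).

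Ddx4 (ENSMUSG00000021758), the Vasa RNA helicase and a classical germ cell marker, had the highest day 16 level per length (0.256 ± 0.0166 FPKM, SD, n = 2) and the smallest fold among the genes that rose. It was at 1.98 CPM in MEFs, 0.728 and 0.775 CPM at day 16, 1.35 and 1.5 CPM at day 20, 1.87 and 1.75 CPM at day 24 and 2.45 and 3.07 CPM at day 28, a 3.67-fold rise from day 16 (1.91 ± 0.37, adjusted p = 0.00615). Day 24 against day 16 was called only with the block (1.28 ± 0.36, adjusted p = 0.0275, against 0.0616 without it). Between MEFs and day 16 Ddx4 fell by 1.39 ± 0.47 on the log2 scale (adjusted p = 0.0382), the only call among the 10 in that comparison, where 15.3% of 19597 genes fell. That call rests on 1 MEF library, assumed to vary like the other groups and also holding liver and macrophage transcripts. The call was lost in 5 alternatives and without either day 16 library.

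The synaptonemal complex genes were the lowest of the 10 per length at day 28. Sycp1 (ENSMUSG00000027855), which forms the transverse filaments, had no counts at day 16 and was at 0.0816 and 0 CPM at day 20, 0.680 and 0.425 CPM at day 24 and 1.68 and 0.768 CPM at day 28, at least 17.9-fold above day 16 (adjusted p = 0.0253). Its day 24 difference was called with the block (adjusted p = 0.0187) and not without it (0.0976). Sycp3 (ENSMUSG00000020059), of the axial elements, was at 0.364 and 0.274 CPM at day 16 and 0.866 and 0.768 CPM at day 28. The groups did not overlap, but the difference of 1.39 ± 0.45 missed the threshold (adjusted p = 0.0606), and passed it with the block (adjusted p = 0.0418). With the block, then, 6, 9 and 10 genes rose by days 20, 24 and 28, where 5.56%, 11% and 16.8% of all genes did.

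**Figure D2:**
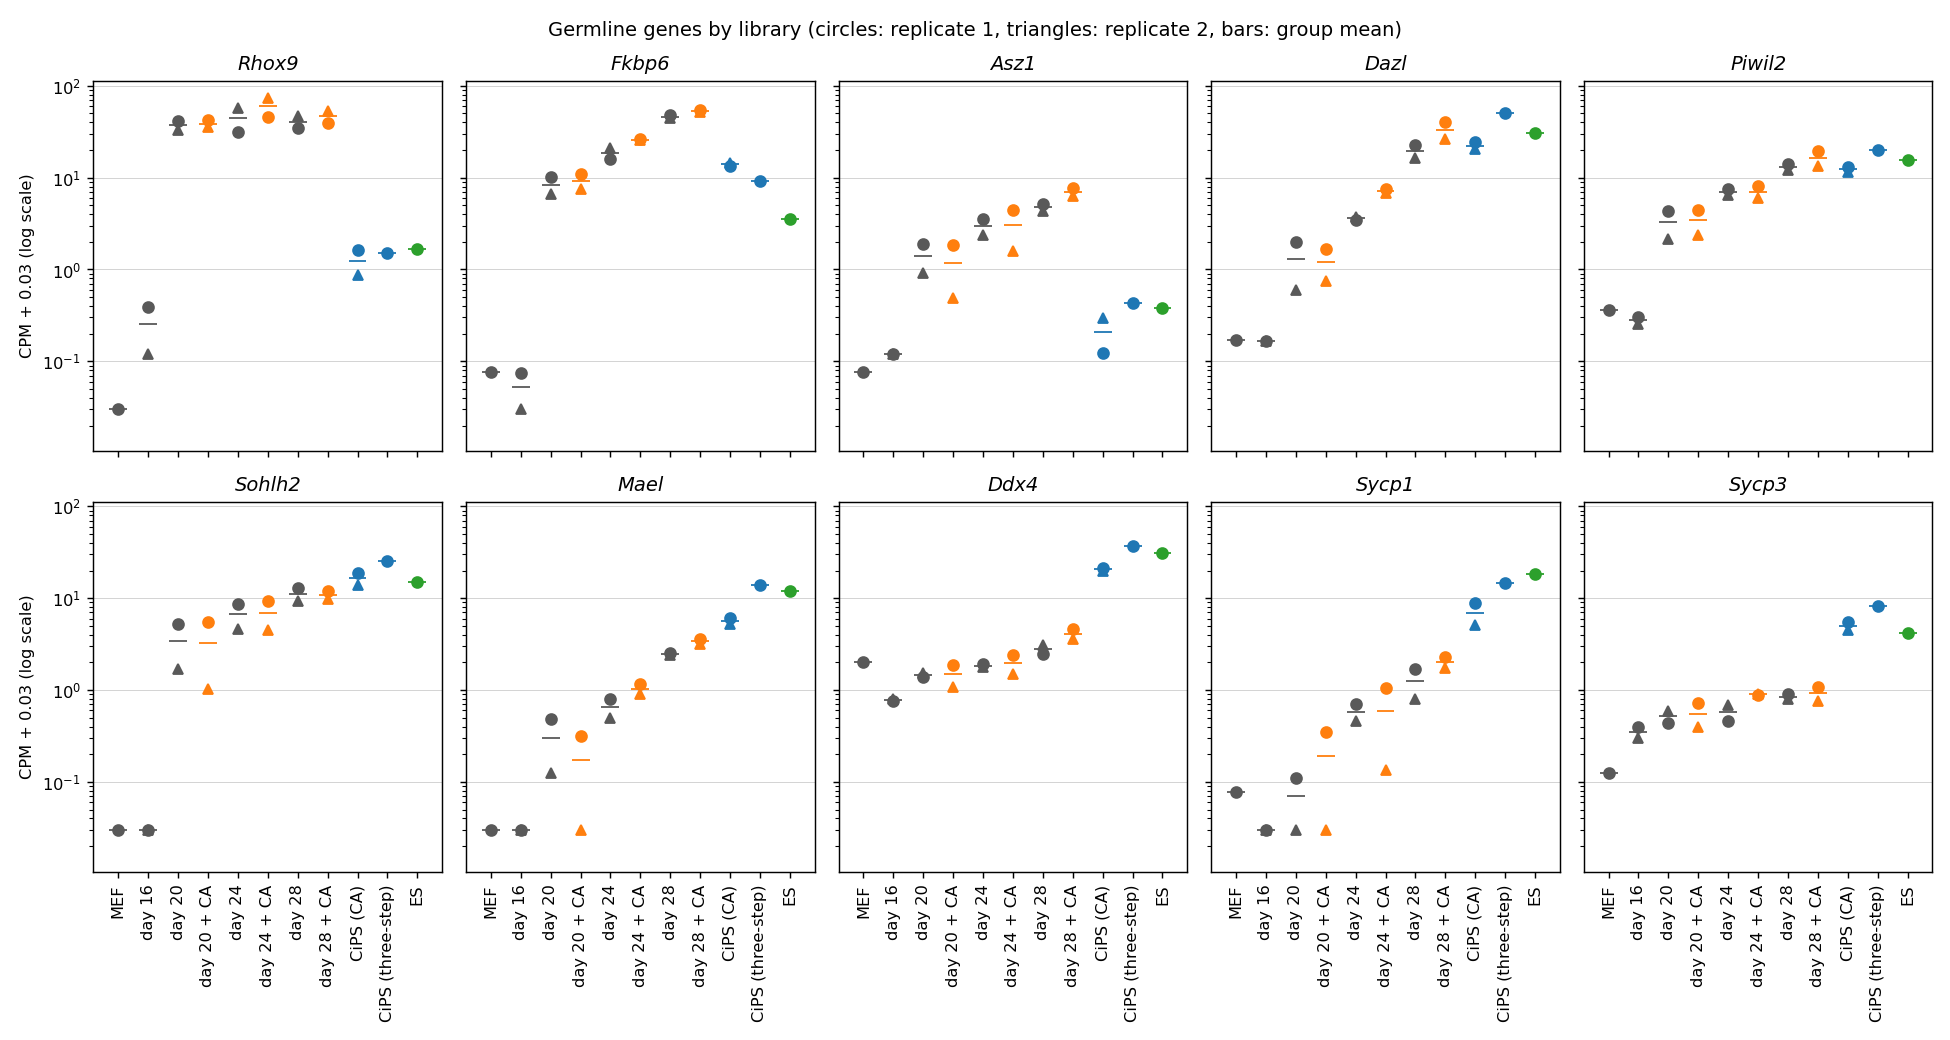
CPM plus 0.03 on a log scale in every library for each of the 10 genes; grey marks MEFs and untreated cultures, orange crotonic acid (CA), blue the CiPS lines and green the ES line, with circles for replicate 1, triangles for replicate 2 and bars for group means. Rhox9 stands at 31.7 CPM or more from day 20 and at 1.64 CPM or less in the lines, while Ddx4, Mael, Sycp1 and Sycp3 are highest in the lines.

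Between neighbouring days, no gene of the 10 was called by edgeR without the block, from day 20 to day 24 or from day 24 to day 28 (0% of all genes for either). In each step 4 of the 10 had an unadjusted p under 0.05, where 1001 and 1422 of all 17387 genes had one. DESeq2 called 1 and 2 of them in these steps. The share of all genes that DESeq2 called is not given, so its counts, here and in the treated cultures, cannot be set against edgeR's shares. In the cultures with crotonic acid the same steps gave 0 calls (0.0288% and 0% of all genes). Here 5 of the 10 had an unadjusted p under 0.05 in each step, where 1457 and 1355 of all 17387 genes had one. DESeq2 called 2 in each. With the block, 1 and 2 genes were called without crotonic acid (0.759% and 1.01% of all genes), and 3 in each step with it (1.99% and 1.06%), namely Dazl, Piwil2 and Fkbp6. Dazl in the treated cultures rose by 2.63 ± 0.36 from day 20 to day 24 (adjusted p = 0.00836) and by 2.20 ± 0.30 from day 24 to day 28 (adjusted p = 0.014) in that fit.

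Crotonic acid gave no called difference in any of the 10 genes at day 20, 24 or 28, and none of their unadjusted p was under 0.05. Of all 17387 genes, 585, 821 and 943 had an unadjusted p under 0.05 at these days. EdgeR without the block called 0% of all genes at each day. DESeq2 and limma-voom also called none of the 10, and nor did the replicate block or the fits without the libraries that held liver transcripts. The shares of all genes in these other fits are not given here. The lowest unadjusted p, 0.0562, was that of Dazl at day 24, which was at 7.42 and 6.77 CPM with crotonic acid at day 24, against 3.40 and 3.73 CPM without it, and at 40.0 and 26.1 CPM against 22.9 and 16.5 CPM at day 28. The groups did not overlap on either day. The difference was 0.99 ± 0.46 at day 24 (log2, 95% interval -0.03 to 2, adjusted p = 1) and 0.74 ± 0.44 at day 28 (-0.22 to 1.71, adjusted p = 1), while at day 20 it was -0.10 ± 0.52.

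The other genes were not called either. Sycp1 had the largest fitted difference, at day 20 (1.81 ± 1.69, 95% interval -1.99 to 5.60), where it rested on 8 counts with crotonic acid and 2 without. Fkbp6 was at 26.1 and 25.4 CPM with crotonic acid at day 24, against 15.9 and 20.9 CPM (0.48 ± 0.25, 95% interval -0.07 to 1.03). Rhox9, like Fkbp6, was higher with crotonic acid in both replicates of all 3 days. At day 28 Rhox9 was 1.15-fold higher, with overlapping groups (0.20 ± 0.34). Sohlh2 lay at 0.95, 1.04 and 0.97 times the untreated mean at days 20, 24 and 28. At day 28 both treated libraries lay above both untreated ones for 6 of the 10 genes, at day 24 for 4 and at day 20 for none, where 16.4%, 15.9% and 18.2% of all genes did so. The median log2 difference over the 10 genes was 0.03, 0.25 and 0.38 at days 20, 24 and 28, against -0.0039, -0.0034 and -0.0093 over all genes tested.

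Averaged over the 3 days the effect of crotonic acid was not called in any of the 10 genes either, where 1.04% of all genes were, and Dazl had the smallest p (0.54 ± 0.27, 95% interval -0.06 to 1.15, adjusted p = 0.472). None of the effects at day 28 differed from that at day 20 past the threshold, in these genes or among all genes tested, of which 0% were called. The Dazl effects differed by 0.85 ± 0.68 (95% interval -0.66 to 2.35). A p that misses the threshold does not show that treated and untreated cells were alike. The log2 intervals for Sycp1 at day 28 (-1.33 to 2.73) and Mael (-0.98 to 1.88) were wide and held both falls and rises.

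**Figure D3:**
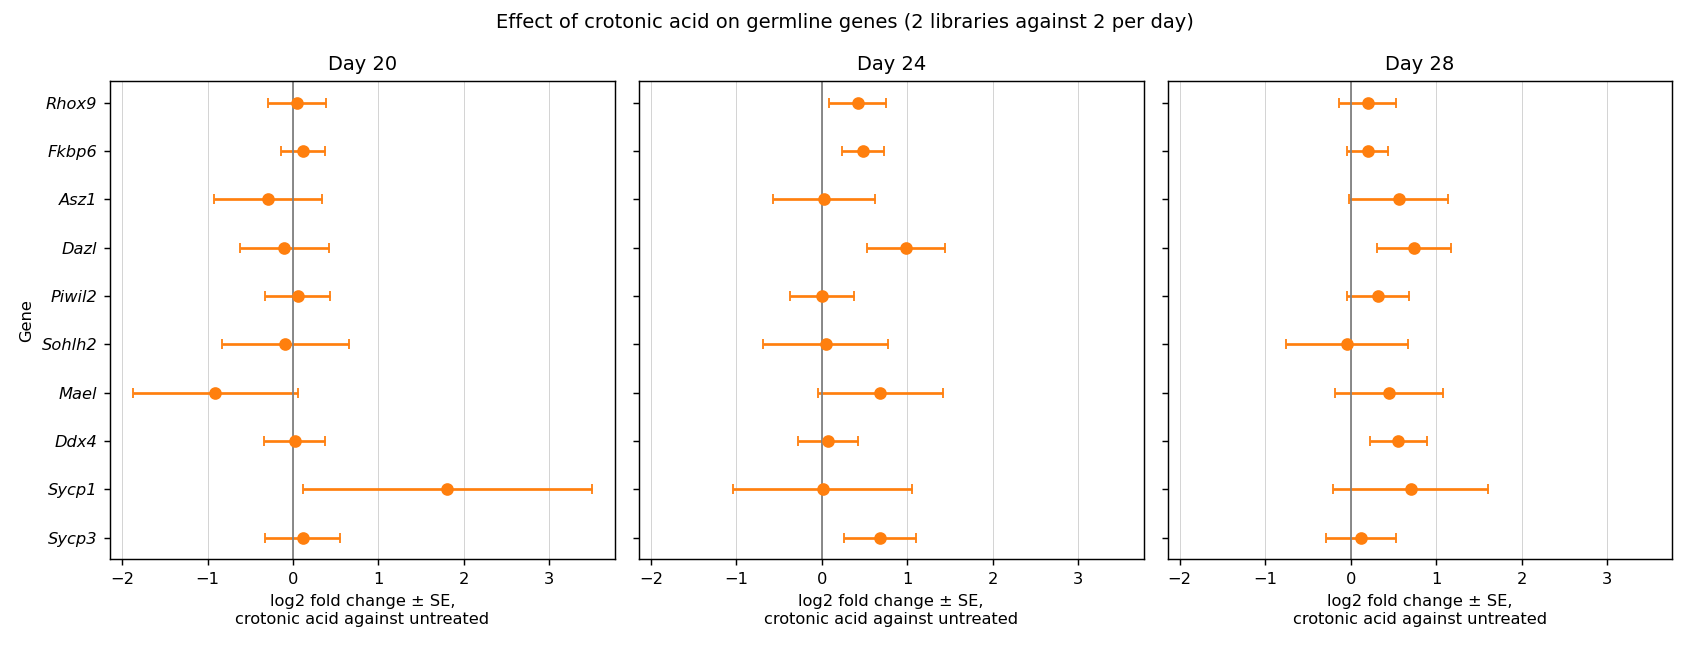
Log2 fold change of crotonic acid against untreated cultures (points) with its SE (bars) for each gene at days 20, 24 and 28, 2 libraries against 2. All 10 points lie above 0 at day 24 and 9 at day 28, against 6 at day 20, and Dazl at day 24 is at 0.99 ± 0.46.

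The pluripotent lines differed from the day 28 cultures in both directions. Relative to untreated day 28, 4 genes were higher in the 3 CiPS lines and 3 were lower (29.1% of 19597 genes rose and 30.4% fell), and in the ES line 4 were higher and 3 lower (22.8% and 23.2%). Both comparisons share the day 28 libraries, so their values are given side by side. The fibroblast and macrophage transcripts of the lines, given above, are also higher there; their part in these differences was not tested. The MEF library held 1.98 CPM of Ddx4 and at most 0.329 CPM of any other of the 10 genes. It also held liver and macrophage transcripts.

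The genes higher in the lines were Ddx4, Sycp3, Sycp1 and Mael. Ddx4 was at 37.3 CPM in the three-step line, 21.5 and 19.7 CPM in the crotonic acid lines and 31.3 CPM in ES cells, against 2.45 and 3.07 CPM at day 28 (CiPS 9.48-fold; 3.24 ± 0.35, adjusted p = 6.02e-06). Sycp3 was at 8.15, 5.52 and 4.47 CPM in the CiPS lines in the same order and 4.18 CPM in ES cells, against 0.866 and 0.768 CPM (2.88 ± 0.38, adjusted p = 3.5e-05). For both genes every line lay above every culture.

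Sycp1 was at 14.7, 8.81 and 5.09 CPM in the CiPS lines and 18.2 CPM in ES cells, against 1.68 and 0.768 CPM (2.96 ± 0.80, adjusted p = 0.00731). Mael was at 14, 6.03 and 5.27 CPM and 11.9 CPM, against 2.50 and 2.40 CPM (1.79 ± 0.61, adjusted p = 0.0237). Again no line overlapped a culture. The Mael call was lost without either day 28 library, and that of Sycp1 without replicate 2 of day 28; against day 28 with crotonic acid Mael missed the threshold (adjusted p = 0.0706), leaving 3 higher and 3 lower (28.1% and 30.3% of all genes).

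Rhox9, Asz1 and Fkbp6 were lower in the lines. Rhox9 was at 1.49, 1.58 and 0.842 CPM in the CiPS lines and 1.64 CPM in ES cells, 31.0-fold below day 28 in the CiPS mean (-4.95 ± 0.36, adjusted p = 2.08e-07). Asz1 was at 0.402, 0.0927 and 0.266 CPM and 0.348 CPM, against 5.10 and 4.34 CPM (-4.16 ± 0.63, adjusted p = 0.000104). Both genes were thus lower in every line than in any culture of day 20 or later, and Asz1 did not differ past the threshold between the CiPS lines and MEFs (2.32 ± 1.48, adjusted p = 0.205). Fkbp6 was at 9.11, 13.5 and 14.4 CPM in the CiPS lines and 3.48 CPM in ES cells, against 48.1 and 44.3 CPM (-1.91 ± 0.24, adjusted p = 2.17e-05, for CiPS and -3.73 ± 0.41, adjusted p = 1.67e-05, for ES).

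Dazl, Piwil2 and Sohlh2 were not called between the CiPS lines and day 28. Dazl was at 50.6, 24.2 and 20.3 CPM in the CiPS lines and 30.2 CPM in ES cells (0.69 ± 0.44, 95% interval -0.26 to 1.64). Piwil2 was at 20.2, 13.1 and 11.4 CPM and 15.7 CPM, which overlapped the 13.9 and 12.2 CPM of day 28 (0.19 ± 0.34, -0.54 to 0.93). Sohlh2 was at 25.6, 18.9 and 14 CPM and 15.0 CPM, all above day 28 (0.81 ± 0.61, -0.52 to 2.15). For scale, the pluripotency factor Pou5f1 was 29.2-fold higher in the CiPS lines than at day 28. Against MEFs 9 of the 10 genes were higher in the CiPS lines and in the ES line, all but Asz1, where 25.7% and 20.1% of all genes rose. In MEFs every gene but Ddx4 lay at 0.329 CPM or less and passed the filter on low counts only through other groups. These counts therefore describe the genes and support nothing further, and MEFs and ES cells are 1 library each.

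**Figure D4:**
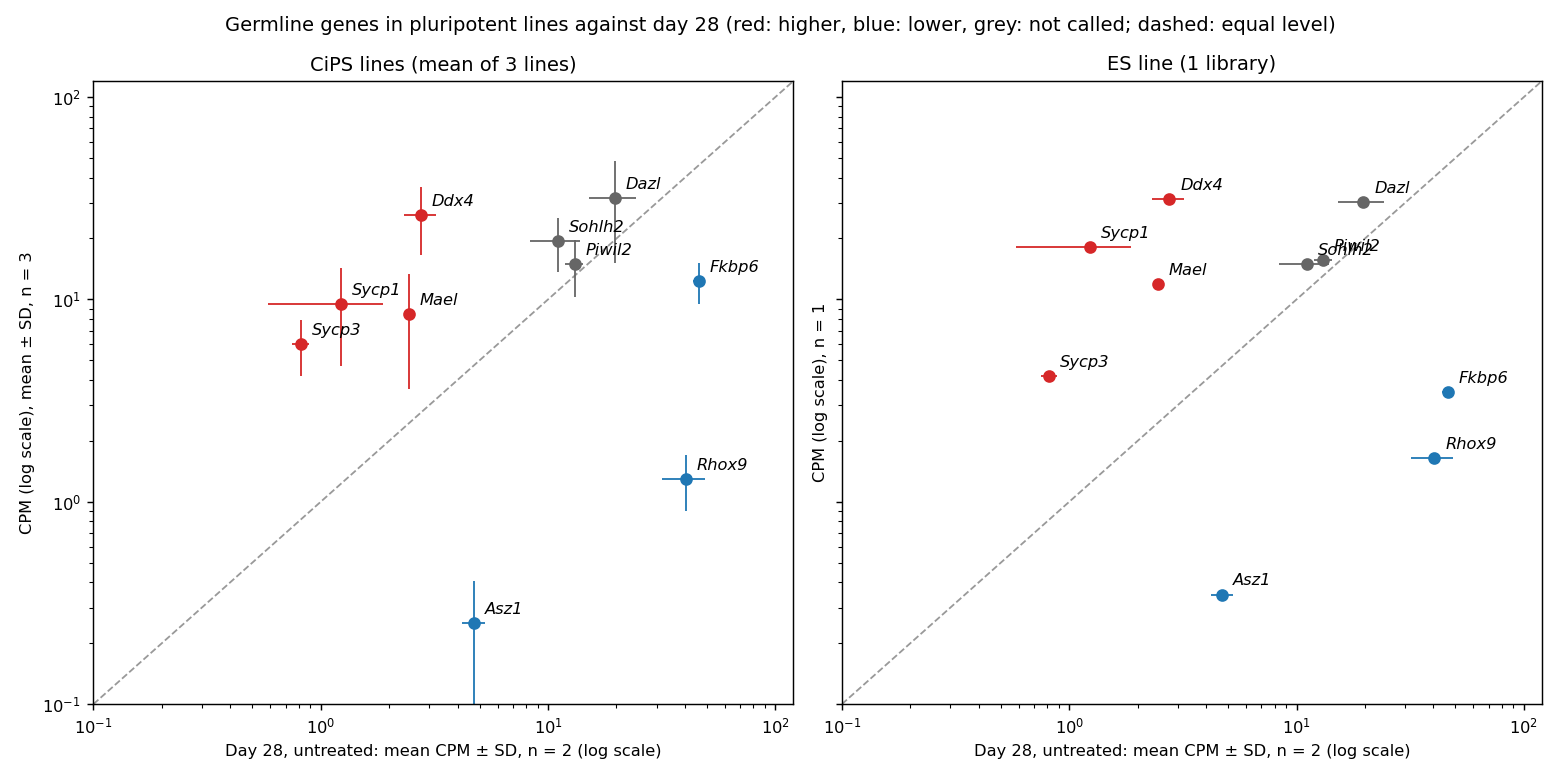
CPM in the CiPS lines (left, mean ± SD of 3 lines) and in the ES line (right, 1 library) against the mean ± SD of the 2 untreated day 28 libraries, on log scales, with the dashed line marking equal levels. Ddx4, Mael, Sycp1 and Sycp3 (red, higher) lie above the line, Fkbp6, Rhox9 and Asz1 (blue, lower) below it, and Dazl, Piwil2 and Sohlh2 (grey) were not called.

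Between the CiPS lines and the ES line edgeR called none of the 10 genes (0.0204% of all genes were called in either direction). Still, 1 gene came nearer the threshold than the others. That gene, Fkbp6, was 3.54-fold higher in the CiPS lines (1.82 ± 0.36, adjusted p = 0.374), and was called by DESeq2, without the filter and on log2(FPKM + 1). The crotonic acid lines and the three-step line gave 0 calls as well (0.122% of all genes). Dazl (-1.18 ± 0.46) and Ddx4 (-0.85 ± 0.32) were among the genes lower in the crotonic acid lines. In 9 of the 10 genes the crotonic acid lines had the lower fitted level, Fkbp6 being the exception (0.61 ± 0.30). The median log2 difference over the 10 genes was -0.788, against -5.13e-15 over all genes tested. DESeq2 also called 0 here. A fit of those 3 lines alone gave calls, but the three-step arm is 1 line and the share of all genes is not given.

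Levels of different genes can be set beside each other per length, as FPKM. At untreated day 28 the highest were Fkbp6 (26.4 ± 1.41 FPKM, SD, n = 2) and Rhox9 (16.3 ± 3.52 FPKM), followed by Dazl (6.72 ± 1.52 FPKM) and Sohlh2 (4.71 ± 1.14 FPKM). The lowest were Sycp3 (0.648 ± 0.0517 FPKM) and Sycp1 (0.345 ± 0.18 FPKM). In the CiPS lines the order had changed: Dazl (10.9 ± 5.64 FPKM, SD, n = 3), Ddx4 (9.27 ± 3.41 FPKM) and Sohlh2 (8.34 ± 2.48 FPKM) led with overlapping ranges, and Rhox9 (0.528 ± 0.163 FPKM) and Asz1 (0.0904 ± 0.0551 FPKM) came last.

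Ordered by mean CPM over all groups, Dazl ran from day 28 with crotonic acid (33.0 CPM), CiPS and ES, which overlapped, through untreated day 28 (19.7 CPM), day 24 with and without crotonic acid (7.10 and 3.56 CPM), to the overlapping day 20 groups and then MEFs and day 16. Piwil2 had a similar order, with the lines and both day 28 groups overlapping at 13.1 to 16.3 CPM. For Fkbp6 the CiPS lines (12.3 CPM) fell among the cultures, overlapping day 20 with crotonic acid (9.14 CPM), and the ES line (3.48 CPM) lay below every culture of day 20 or later and above day 16. For Ddx4, MEFs (1.98 CPM) lay below both day 28 groups, above untreated days 16, 20 and 24, and within the range of day 24 with crotonic acid.

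Other genes of the same processes, in lists drawn up with earlier results of these data known, were counted in the same fits. From day 16 to day 28, 9 of 14 tested piRNA pathway genes rose and 1 fell, 8 of 10 synaptonemal complex genes rose, 8 of 12 of meiotic recombination, 3 of 8 of meiotic entry (a list that also holds Mael) and 4 of 10 germ cell regulators, where 10.1% of all genes rose. With the replicate block 11 piRNA genes rose and 1 fell, 4 genes of meiotic entry rose (Stra8, Meioc, Mael and Brdt), and 4 germ cell regulators rose and 1 fell, Zbtb16 (-0.98 ± 0.33, adjusted p = 0.0455). With the block 16.8% of all genes rose, and the share that fell is not given for either fit. Median log2 changes were 2.79, 4.53, 1.29, 0.60 and 0.97 in these lists, against 0.014 over all genes tested; many of their members, too, could pass the filter only through later groups. Rnf17, a tudor protein of germ cell granules, rose by 2.73 ± 0.52 (adjusted p = 0.00577), and Stag3, a meiotic cohesin subunit, by 2.68 ± 0.37 (adjusted p = 0.00114). Stra8, which starts meiosis in response to retinoic acid, was at 0 CPM at day 16 and at 5.43 CPM at day 28 (adjusted p = 7.4e-05), whereas the meiotic cohesin Rec8 did not pass the test (0.38 ± 0.18, adjusted p = 0.182).

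A list of further germline-linked genes, chosen as silenced by DNA methylation, shares some members with the other lists and Zfp42 with the pluripotency genes. Of its tested members 16 of 17 were higher at day 28 than at day 16, where 10.1% of all genes rose. Tex19.1 was at 31.9 CPM against 0.0455 CPM. Of the other Rhox genes 4 of 5 rose (10.1% of all genes), among them Rhox6 (6.83 ± 0.48, adjusted p = 2.7e-05) and Rhox5 (3.57 ± 0.39, adjusted p = 0.000285). In the CiPS lines 0 of 7 tested Rhox genes were higher than at day 28 and 5 were lower (29.1% and 30.4% of all genes). Rhox6 was at 1.33 CPM against 68.1 CPM and Rhox5 at 21.4 CPM against 242 CPM. Copies of this cluster are near-identical in part, so single values, Rhox2a above all, are uncertain.

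In that comparison of lines with day 28 the other lists moved both ways. Of the piRNA genes 5 of 15 were higher and 6 lower, of synaptonemal genes 2 of 11 and 3, of recombination genes 6 of 13 and 4, of entry genes 3 of 8 and 1, of germ cell regulators 5 of 10 and 2, and of the further germline-linked genes 6 of 18 and 7, against 29.1% and 30.4% of all genes. Tdrd12 (4.73 ± 0.24, adjusted p = 9.42e-09) and Rnf17 (4.47 ± 0.39, adjusted p = 9.67e-07), tudor-domain genes of the piRNA pathway, were higher, as was the recombinase gene Dmc1 (2.78 ± 0.49, adjusted p = 0.000324). Tdrd7 (-1.76 ± 0.16, adjusted p = 1.2e-06), Rec8 (-1.61 ± 0.18, adjusted p = 6.91e-06) and Mnd1, a partner of strand exchange (-2.58 ± 0.44, adjusted p = 0.000288), were lower.

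Genes known to repress germline promoters were mostly not called from day 16 to day 28. Of 15 such genes 0 rose from day 16 to day 28, where 10.1% of all genes did, and 1 fell, the deacetylase Hdac2 (-0.57 ± 0.13, adjusted p = 0.0136). The share of all genes that fell, here or with the replicate block, is not given. E2f6 was at -0.07 ± 0.12, Mga at 0.31 ± 0.15 and Pcgf6 at 0.20 ± 0.21, all without a call. With the replicate block 1 of the 15 rose, Ring1 (0.55 ± 0.16, adjusted p = 0.0213), where 16.8% of all genes did. In that fit 3 fell, Hdac2, Ehmt1 (-0.31 ± 0.10, adjusted p = 0.0427) and Ehmt2 (-0.33 ± 0.10, adjusted p = 0.0293). Of 9 genes of DNA methylation and demethylation 0 rose and 1 fell, Tet3 (-1.0 ± 0.20, adjusted p = 0.00686), with the maintenance methylase Dnmt1 at -0.48 ± 0.26 (adjusted p = 0.24) and its partner Uhrf1 at -0.22 ± 0.32 (adjusted p = 0.688). In the CiPS lines 9 of the 15 repressor genes were higher than at day 28 and 2 lower, where 29.1% and 30.4% of all genes were. The 2 were E2f6 (-0.76 ± 0.10, adjusted p = 4.49e-05) and Ring1 (-0.96 ± 0.17, adjusted p = 0.000297). Against the same shares, 6 of the 9 methylation genes were higher and 1 lower. The higher ones included Dnmt3l at 140 CPM against 1.30 CPM, Tet1 at 469 CPM against 18.8 CPM and Dnmt3b at 88.0 CPM against 21.5 CPM.

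Markers of germ cells and of somatic cells of the gonads were measured beside the 10 genes. Spermatid genes (6) summed to 1.85 to 3.21 CPM at day 28, with 3 at 0 in both libraries and Spaca1 (2.41 CPM) as the bulk, and to at most 0.448 CPM in the lines. Oocyte genes (7) summed to 1.13 to 2.24 CPM at day 28, with 4 at 0, and to 2.73 to 3.61 CPM in the lines, where Zp3 was at 2.40 CPM. The 7 primordial germ cell genes are all in the list of germ cell regulators as well, so their counts are not separate. Of these 7, 3 rose to day 28 (10.1% of all genes did) and 0 fell. In the CiPS lines 4 were higher than at day 28 and 1 lower (29.1% and 30.4% of all genes). The largest, Kit, was at 249 CPM at day 16, 537 CPM at day 28 and 172 CPM in the CiPS lines, and Prdm14 at 0.182, 1.26 and 13.8 CPM. Gonadal somatic genes (8) summed to 39.2 to 125 CPM at day 16, 16.4 to 34.6 CPM at day 28 and 7.05 to 7.75 CPM in the CiPS lines, with Cyp11a1 at 55.9, 18.2 and 0.68 CPM. The part of these cell types in the results was not tested.

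The replicate numbers also went with the level of several genes, a comparison made after the data were seen. In the fit with the replicate block, Sohlh2 (-1.04 ± 0.24, adjusted p = 0.0103), Asz1 (-0.80 ± 0.22, adjusted p = 0.0207) and Piwil2 (-0.52 ± 0.13, adjusted p = 0.0122) were lower in the replicate 2 libraries, where 16.8% of all genes were. Replicate 1 was the higher in 6 of 6 groups from day 20 on for Piwil2, Sohlh2, Mael, Asz1 and Sycp1, and in 2 of 6 for Rhox9. The share of all genes with such an order is not given, and the groups are not independent here. At untreated day 20 Sycp1 had only 2 counts in replicate 1 and 0 in replicate 2. At day 20 Sohlh2 was at 5.14 CPM in replicate 1 and 1.65 CPM in replicate 2 without crotonic acid, and at 5.45 and 1.0 CPM with it. At day 28 the replicates stood closer, at 13 and 9.18 CPM.

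**Figure D5:**
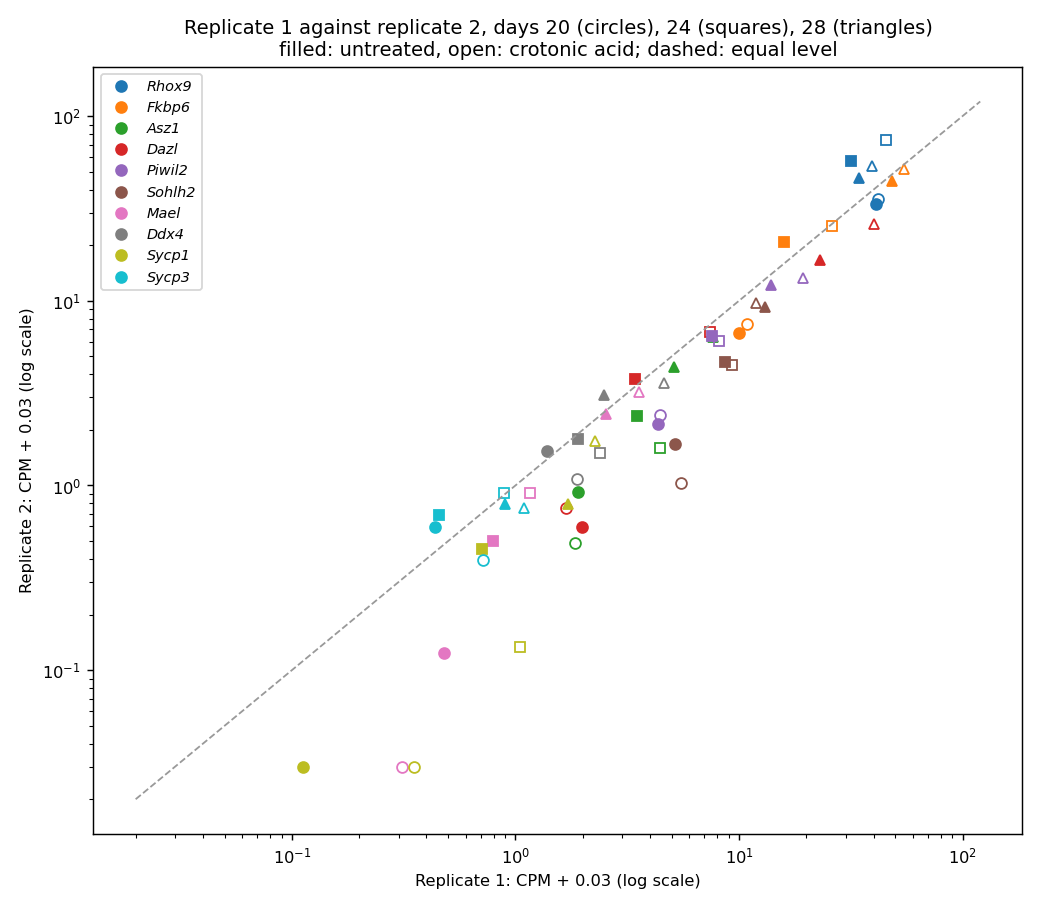
Level in replicate 2 against replicate 1, as CPM plus 0.03 on log scales, for each gene (colour) at days 20, 24 and 28 (circles, squares, triangles), without (filled) and with (open) crotonic acid; the dashed line marks equal levels. Most points of Sohlh2, Asz1, Piwil2, Mael and Sycp1 lie below the line, and those of Rhox9 at days 24 and 28 above it.

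The mean standardised level of the 10 genes over the 19 libraries was followed most closely by Piwil2 (Pearson's r = 0.995), Sohlh2 (0.980), Dazl (0.971) and Mael (0.938), and least by Rhox9 (0.520) and Asz1 (0.570), which are low in the lines. Each gene is part of the mean it is set against, and libraries of one group are not independent, so these are descriptions. Among 14809 genes with a mean of at least 1 CPM, the closest outside the 10 was Adad2 (r = 0.989), followed by Zfp264 (0.983), Hormad2 (0.976), Tex19.2 (0.975), Triml2 (0.974), Gm16411 and Platr20 (0.973 each), Mov10l1 (0.971), Dppa5a (0.970) and Lactb2 (0.969). Adad2 was at 0 CPM in MEFs and at day 16, 0.831 CPM at day 20, 3.65 CPM at day 28 and 5.14 CPM in the CiPS lines. The pluripotency-associated Dppa5a stood at 0 CPM in MEFs, 210 CPM at day 28 and 1450 CPM in the CiPS lines, and Lactb2, at 30.2, 74.9 and 84.8 CPM in the same groups, had a far smaller range.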

How the data were processed

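RNA sequencing of mouse cells gave 19 libraries that were analysed, out of 20 samples; 1 column of per-sample values whose name no label gives was not used. RNA was taken with a Qiagen kit and libraries were made with a NEBNext kit, per the labels' protocols; strandedness, aligner, counter, genome build and gene models are not given in any source used here. The authors deposited whole-number read counts per Ensembl gene (47643 genes) and FPKM values, scaled by the authors per gene length and library (30849 genes); 419 identifiers had no symbol.

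Counts were tested with edgeR 4.0.16 under R 4.3.3 (filterByExpr with a minimum count of 10, TMM, quasi-likelihood F test, 2-sided, Benjamini-Hochberg adjustment over all genes, threshold 0.05). The 14 reprogramming libraries were fitted together (17387 genes); comparisons with MEFs, ES and CiPS lines used all 19 libraries (19597 genes), with the 3 CiPS lines as 1 group, or as groups by method when compared with each other. A lone library is assumed to vary like the other groups. CPM used TMM sizes of all 19 libraries. With a biological coefficient of variation of 23% in the first fit, the spread between libraries sets the precision for well-counted genes, and the depth for genes of few counts. A fold against a group without counts is a lower bound, taken from 3 counts over the group; with 1 to 3 counts a ratio with its exact 95% interval is given, for counting error only.

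Replicate numbers of the reprogramming libraries were assigned here, by whether a title ends in -rep. Deviations from the group means of same-numbered replicates correlated in all 21 pairs of groups (0.22 to 0.543, median 0.389), so the number was also fitted as a block. The labels do not say that same-numbered libraries belong together, and what the block stands for was not tested. The fit with the replicate block is given where it changes a call. Alternatives were RLE factors, total counts, no filter, DESeq2 1.42.0, limma-voom and limma-trend (limma 3.58.1) on log2(FPKM + 1) and log2(FPKM + 0.1) with a mean of at least 0.1, the compared groups alone, the block, and each library left out; a fit without both libraries that held liver transcripts was added after seeing the data. The test was tried on simulated data.

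The genes and lists were chosen with earlier results of these data known. All 10 genes are named in each comparison that calls or nearly calls them, of each list those among its 4 genes with the highest mean CPM over day 28 and the lines (or, for repressors and methylation genes, any member), and the 10 genes closest in pattern. Of the genes named by this rule some are left out for length.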

Additional observations from a re-analysis of the deposited data

How the results depend on the processing

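Over 2569 alternative fits of single genes, 2456 kept the direction and the side of the threshold, 49 lost and 64 gained a call and 0 reversed one; 142 pairs that were uncalled in both differed in sign. The 9 calls at day 28 against day 16 became 8 to 9 with a library left out, and the 7 at day 24 became 6. The 7 of the CiPS lines against day 28 became 5 to 7. Crotonic acid gave 0 calls under every alternative run. The single call between MEFs and day 16 became 0 with total counts, limma-voom, both FPKM fits, the 2 groups alone or either day 16 library left out (0 to 0). The 5 calls at day 20 against day 16 became 3 with limma-voom, 2 on log2(FPKM + 1), 0 with the groups compared alone and 3 to 5 with a library left out, the 3 without day 16 replicate 1, day 16 replicate 2 or day 20 replicate 1.

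Steps between neighbouring days, with 0 calls, gained some. Day 20 to 24 gave 3 without the filter, 1 with DESeq2 and 1 with the replicate block, and day 24 to 28 gave 3, 2 and 2, and 2 on log2(FPKM + 1). With crotonic acid these steps gave 3 without the filter, 2 with DESeq2 and 3 with the block in either step, on log2(FPKM + 1) 1 and 2, and 1 with limma-voom in the later. The CiPS lines against ES went from 0 to 1 without the filter, with DESeq2 and on log2(FPKM + 1). The lines by method went from 0 to 1 with limma-voom and 2 on log2(FPKM + 1). With those lines alone there were more calls, and the three-step arm is 1 line there. The causes were not tested. The shares of all genes called by these alternatives, other than the replicate block, are not given here. For the 10 genes the replicate block changed no call other than those printed in the report. Sycp1, Sycp3 and Mael had only 50, 34 and 102 counts over both untreated day 28 libraries. At each single day edgeR without the block called 0 of all 17387 genes tested for crotonic acid.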

Other observations

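Among the related genes of the lists, averaged over days 20, 24 and 28, crotonic acid gave 3 calls in edgeR. Tdrd12, a tudor-domain gene of the piRNA pathway, was higher with it (0.88 ± 0.17 on the log2 scale, adjusted p = 0.0389), at 0.785, 2.01 and 3.73 CPM against 0.591, 0.937 and 1.68 CPM at the 3 days. Tfap2c, a transcription factor of primordial germ cells, was higher too (0.80 ± 0.16, adjusted p = 0.0469), at 13, 9.88 and 11.3 CPM against 7.98, 5.79 and 5.82 CPM. Kit, a receptor that germ cells need to survive and that other cell types also carry, was lower (-0.78 ± 0.15, adjusted p = 0.042), at 187, 258 and 348 CPM against 329, 473 and 537 CPM. No gene of any list was called for crotonic acid at a single day without the replicate block; with it, Kit was lower at day 24 (-0.86 ± 0.14, adjusted p = 0.0248). For the mean over the days, the fit with the block called the same 3 genes and also Tdrd6, another tudor-domain gene of the piRNA pathway, which was lower (-0.87 ± 0.21, adjusted p = 0.0295). It also called 2 of 6 fibroblast markers higher with crotonic acid, Thy1 (1.10 ± 0.18, adjusted p = 0.00522) and Twist1 (0.70 ± 0.17, adjusted p = 0.0298); their part in the other differences was not tested.

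Rhox1 was at 1.21 CPM in the CiPS lines and 1.39 CPM at day 28 (-0.21 ± 0.32, adjusted p = 0.603). Mov10l1, an RNA helicase of piRNA production and one of the genes closest in pattern to the 10, was at 9.2 CPM at day 28, 17 CPM at day 28 with crotonic acid and 7.55 CPM in the CiPS lines, and its mean crotonic acid effect was not called (0.58 ± 0.26, adjusted p = 0.42).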
